A study of Mus musculus with 6 samples.

Results

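The 3 control testis samples of a mouse study of Dmrt1 were described here by the brightness of each gene on the array. They were chosen by their titles, are 3 of 6 samples, and came from male juvenile mice at postnatal day 9 (P9). All 3 were Cre-negative samples of a line labelled NGN-cre with the genotype Control, and the labels do not say which Dmrt1 alleles they carried. The remaining 3 samples were Cre-positive and labelled Dmrt1 KO, and none of their values is given. Each array held 1 control sample of whole testis RNA, and the labels do not state whether each was a different animal, so the spread between arrays may be partly technical. Of 25631 transcripts on the array, 17780 could be given a gene symbol, for 17277 genes.

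At this age the seminiferous tubules of a mouse hold dividing Sertoli cells, spermatogonia at several steps, and the first germ cells that enter meiotic prophase. Haploid spermatids do not yet exist. Between the tubules lie steroid-producing Leydig cells, peritubular myoid cells, vessels, macrophages and matrix-producing mesenchyme. A whole-testis array reads all of them together, so fewer cells of a type and less RNA per cell cannot be told apart. Brightness also depends on the probes of each transcript. For 433 genes measured by several transcripts, the brightest and the dimmest differed by a median of 1.21 on the log2 scale (quartiles 0.43 and 2.26), so levels below rank array brightness and not numbers of RNA molecules.

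All levels are log2 of the deposited intensity, and where 3 values follow each other they are controls 1, 2 and 3. Olfactory receptor genes (Olfr), which encode odorant receptors of the nose, served as background. The 1064 Olfr genes had a median of 4.79, and the 95th percentile of their control means, 7.08 (an intensity of 134.8), was used as a guide between background and signal. Above it lay 12170 of 17277 named genes (70.4%) by the mean of the controls, and 11784 (68.2%) on all 3 arrays, and the median of all named genes was 9.69. By construction about 1 in 20 Olfr genes pass the guide (54 did), so a gene just above it is not shown to be expressed. Among other sensory receptor families, 1 of 137 vomeronasal and 3 of 33 bitter taste receptor genes passed.

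**Figure D1:**
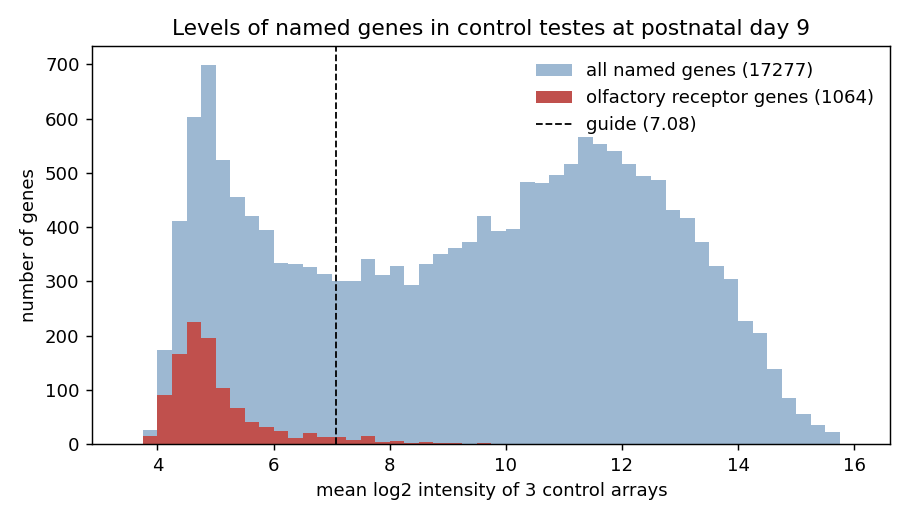
Number of genes (vertical axis) by mean log2 intensity of the 3 control arrays (horizontal axis), for all 17277 named genes and, in front, for 1064 olfactory receptor genes. The receptor genes pile up around 4.79, left of the dashed guide at 7.08, and the remaining genes show a second broad hump above it.

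The brightest Olfr genes were Olfr1425 at 9.54, 9.70 and 9.68 and Olfr1420 at 9.56, 9.70 and 9.65. Both stood well above the guide on every array, with nearly equal values. Their sequences and probes were not compared, so shared hybridisation cannot be told apart from the level of each. Olfr1330 (mean 9.14), Olfr57 (9.11) and Olfr1287 (8.82) followed.

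The targeted gene of the study, Dmrt1, is a regulator of transcription in the Sertoli cell and in spermatogonia. It read 13.59, 13.49 and 13.21 in the controls, a mean of 13.43 ± 0.20 (SD, n = 3), brighter than 91.2% of named genes.

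Among the 15 brightest named genes 4 encode ribosomal proteins and the others are of mixed function. Col1a2, a chain of type I collagen, led with 15.67, 15.72 and 15.80, followed by Sparc, a matrix glycoprotein, with 15.82, 15.69 and 15.63. Aldh1a1, a retinaldehyde dehydrogenase that makes retinoic acid, had 15.74, 15.51 and 15.86. These values overlap from array to array. The rest of them were Rpl6, Rpl23a, Rpl41 and Rpl32 of the ribosome, Ubb (ubiquitin), Ptma, Pigt, Eef1a1 (a translation elongation factor), Sptbn1 (a spectrin), Tsc22d1, Tuba1b (a tubulin) and Aard, a gene of Sertoli cells that read 15.78, 15.41 and 15.68. The 15 means spanned 15.56 to 15.73 while their SDs ran up to 0.26, so their order is not resolved. Outside ribosomal and housekeeping genes, the next in line were Gatm (15.54), Hdac2 (15.52), Tuba1a (15.52), Psap (15.52) and Eif4a1 (15.52). Of the 100 brightest genes 20 have a ribosomal protein symbol (of 81 measured) and 6 are on the housekeeping list (of 17). The matrix list held 4 (of 23), and the Sertoli product (of 28) and retinoic acid lists (of 21) 3 each. The general germ cell, undifferentiated, differentiating and erythroid lists held 1 each. These counts depend on the sizes of the lists.

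Genes were grouped in 29 lists of cell types and pathways that together name 537 genes, of which 489 were measured, with some genes on more than 1 list. Each list's count above the guide is to be read against the 70.4% of all named genes, and its median against 9.69. No test was made on the lists.

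**Figure D2:**
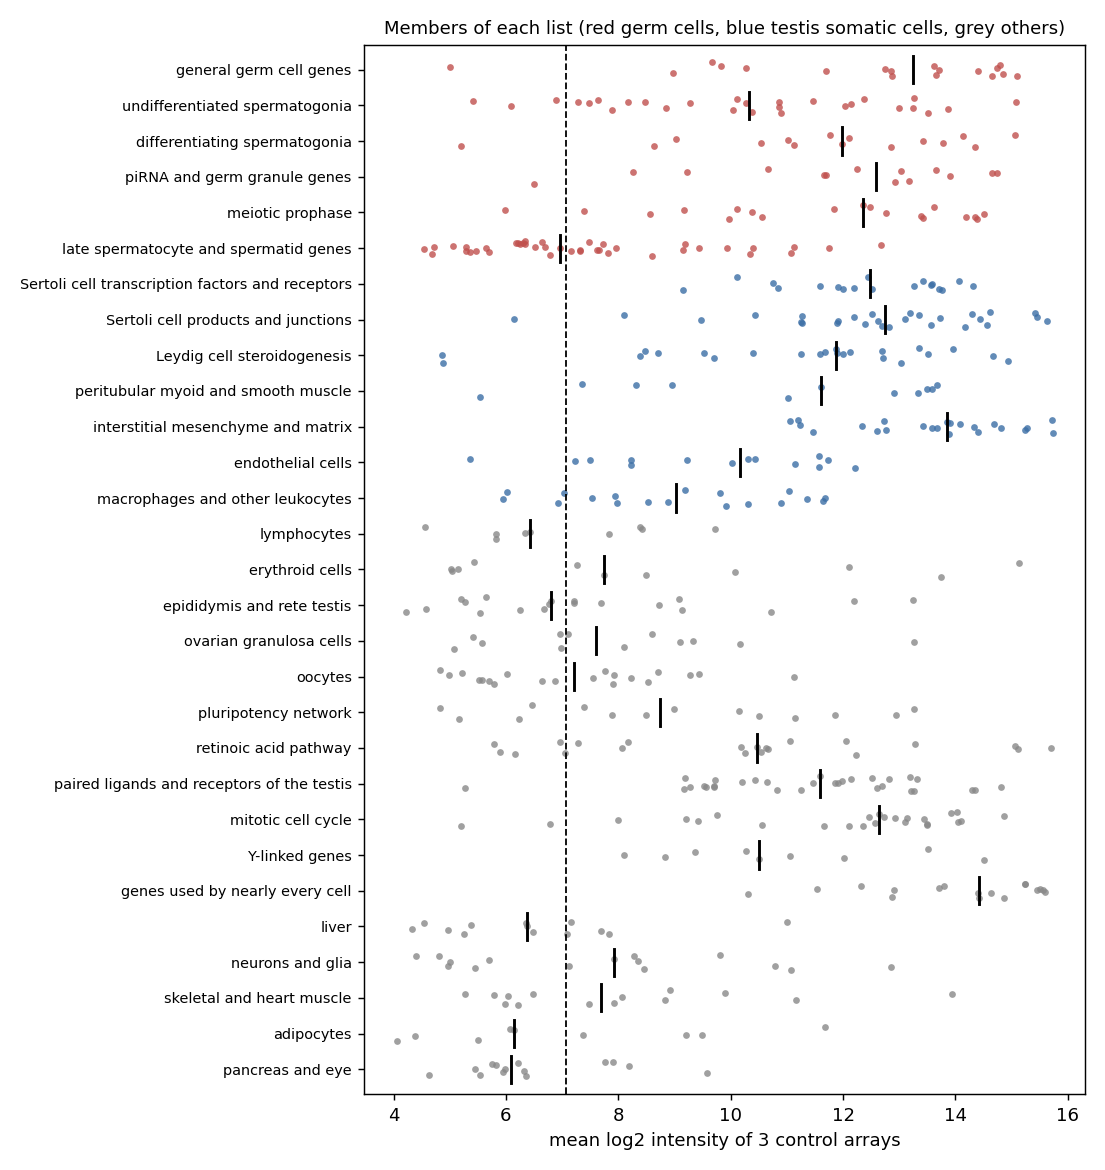
Mean log2 intensity of the 3 control arrays (horizontal axis) for every measured member of each list (1 dot per gene), with list medians as black bars and the guide at 7.08 dashed. Germ cell lists up to meiotic prophase, Sertoli cell lists and the matrix list lie mostly right of the guide, and the late spermatocyte and spermatid list straddles it with a median of 6.97.

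General germ cell genes were bright, with 17 of 18 above the guide and a median of 13.25. Taf7l, an X-linked germ cell counterpart of a subunit of the general transcription factor TFIID, read 15.10, 15.37 and 14.83. Dazl, an RNA-binding protein needed for germ cell development, read 14.64, 14.72 and 15.20. Slc25a31, a mitochondrial ADP/ATP carrier of germ cells, was steadier, with 14.81, 14.73 and 14.82. Mael (14.75 ± 0.09) and Ddx4 (14.66 ± 0.05; SD, n = 3 each), a piRNA factor and an RNA helicase of germ granules, lay close behind, followed by Tex14 (14.41), which builds the bridges between germ cells. Nanos3, which protects early germ cells, was lower at 10.28 ± 0.05, Dnd1, an RNA-binding partner of the Nanos proteins, averaged 9.67, and Sox30 averaged 8.97. Tex13a, an X-linked germ cell gene, was the only general germ cell member not above the guide, at 5.05, 4.65 and 5.33.

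Small RNAs of the piRNA pathway silence transposons in germ cells. Of its 14 measured genes 13 were above the guide, with a median of 12.59. The helicase Mov10l1 (13.17 ± 0.07), the Tudor protein Tdrd1 (13.66 ± 0.03) and the Piwi protein Piwil2 (13.04 ± 0.20; SD, n = 3 each) were bright on all arrays. Piwil1, the Piwi protein that loads pachytene piRNAs, was dimmer, with 9.17, 9.10 and 9.43. Tdrd6, a Tudor protein of spermatocytes and spermatids, stayed at 6.62, 6.92 and 5.98, below the guide on every array.

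Undifferentiated spermatogonia, which include the stem cells, gave a wider spread of levels, with 25 of 28 genes above the guide and a median of 10.33. Brightest was Itgb1, an integrin chain used by many other cells too, at 15.01, 14.78 and 15.44. Zbtb16, the transcription factor PLZF that keeps spermatogonia undifferentiated, read 14.15, 13.39 and 14.08, and Cd9, a membrane tetraspanin, averaged 13.51. Lin28a, an RNA-binding protein of progenitors, averaged 13.26 ± 0.35 and Foxo1 12.38 ± 0.13 (SD, n = 3 each). Gfra1, the receptor subunit for Gdnf, averaged 12.14 and the chromatin protein Bmi1 12.04. Other regulators of the undifferentiated pool were dimmer, with Etv5 at 10.11, Id4 at 8.17, Nanos2 at 7.48 and Eomes, a little above the guide, at 7.28. Pou3f1 (6.89), Pax7 (6.10) and Lhx1 (5.42) were not above it.

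Genes of differentiating spermatogonia had 14 of 15 members above the guide and a median of 11.98. Crabp1, a retinoic acid binding protein, read 15.10, 15.18 and 14.92. Kit, the receptor for stem cell factor that marks the step to differentiation, read 14.24, 14.22 and 14.58. On average Kit was brighter than 97.4% of named genes. Uchl1, a ubiquitin hydrolase of spermatogonia, averaged 14.14 ± 0.15, Sohlh2 13.78 ± 0.16 and its partner Sohlh1 11.77 ± 0.08 (SD, n = 3 each). Stra8, which retinoic acid induces and which starts meiosis, averaged 11.12 ± 0.16. Lmo1, at 5.34, 5.58 and 4.66, was the only member below the guide.

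Meiotic prophase genes were bright at this age, with 18 of 19 measured genes above the guide and a median of 12.36. The list names 33 genes, and the levels of those not measured are unknown. Tex15, needed for meiotic recombination, read 14.35, 14.59 and 14.58. The cohesin subunit Stag3 read 14.50, 14.60 and 14.05. The synaptonemal complex proteins Sycp3 and Sycp1, which hold paired chromosomes together, averaged 14.35 ± 0.21 and 14.20 ± 0.30 (SD, n = 3 each). Other recombination genes covered a wide range, with Tex11 at 13.62 ± 0.29, Psmc3ip at 12.36 ± 0.29, the strand exchange protein Dmc1 at 10.38 ± 0.51 and Spo11, which cuts DNA to start recombination, at 10.11 ± 0.65. Rec8, a meiotic cohesin subunit, averaged 8.57, Mei4, a partner in break formation, was just above the guide at 7.36, 7.37 and 7.41, and Terb1, a telomere protein of meiosis, averaged 5.98 and was below it.

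Late spermatocyte and spermatid genes differed from the lists above: 20 of 41 were above the guide (48.8%), 17 of them on all 3 arrays, and the list median was 6.97. The brightest members were Odf2 at 13.01, 12.48 and 12.54, a protein of the sperm tail that also serves centrioles in other cells, Cox6b2, a testis subunit of cytochrome c oxidase (11.75), the TBP-like factor Tbpl1 (11.12), the RNA-binding protein Ybx2 (11.08) and Pdha2, the testis form of a pyruvate dehydrogenase subunit (10.39). Crem, whose activator form switches on spermatid genes, averaged 10.34 ± 0.31. Catsper2 (9.43), Prm3 (9.18), Oaz3 (9.15) and Zpbp (8.60) were also above the guide. Among the proteins that replace histones in sperm, Prm1 read 7.58, 6.90 and 7.47, Tnp1 6.93, 7.26 and 7.27, Prm2 6.90, 6.15 and 5.89, and Tnp2 5.93, 6.38 and 6.34. Acr and Acrv1 of the acrosome averaged 6.34 and 6.18, and the lactate dehydrogenase Ldhc 5.65. Akap4, the main sperm tail anchor protein, was the dimmest at 4.91, 4.55 and 4.15. Pgk2, the sperm form of phosphoglycerate kinase, read 4.68, 4.52 and 6.66, with control 3 apart and still below the guide.

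A short motif was counted in the promoters of germ cell genes. The window was 250 bases before to 50 bases after each gene's start, from RefSeq on build GRCm38.p6, and 13821 of the 17277 genes had one. The motif is the E-box CACGTG, a site for basic helix-loop-helix factors that reads the same on both strands. It was present in 17 of 39 genes of the general germ cell, piRNA and meiosis lists (43.6%), against 1336 of all 13821 (9.67%). A promoter counted as CpG-rich where its observed over expected CpG ratio was at least 0.6. Among CpG-rich promoters the shares were 53.6% (15 of 28) and 13.2% of all such promoters, and 14.4% of those in the highest tertile of level above the guide. Where only genes with a single listed promoter were counted, they were 37.5% (12 of 32) and 8.30%. The spermatogonial lists held it in 4 of 32 genes (12.5%) and the late list in 0 of 34. These are counts of letters in a window, not of bound sites, and no test was made on them. The promoters of the brightest holders are shown with the E-box in capitals and all other bases in lower case, Taf7l (chrX:134476441-134476740, minus strand) and Slc25a31 (chr3:40708621-40708920, plus strand) for the general germ cell list and Stag3 (chr5:138280259-138280558, plus strand) and Sycp3 (chr10:88459337-88459636, plus strand, 2 matches) for meiosis, a choice made after the counts were seen:
Taf7l: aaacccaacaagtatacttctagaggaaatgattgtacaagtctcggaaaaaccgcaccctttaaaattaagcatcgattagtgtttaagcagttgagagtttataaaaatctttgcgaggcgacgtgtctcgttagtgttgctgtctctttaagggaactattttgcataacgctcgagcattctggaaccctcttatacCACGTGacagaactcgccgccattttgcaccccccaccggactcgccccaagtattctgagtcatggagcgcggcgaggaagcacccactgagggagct
Slc25a31: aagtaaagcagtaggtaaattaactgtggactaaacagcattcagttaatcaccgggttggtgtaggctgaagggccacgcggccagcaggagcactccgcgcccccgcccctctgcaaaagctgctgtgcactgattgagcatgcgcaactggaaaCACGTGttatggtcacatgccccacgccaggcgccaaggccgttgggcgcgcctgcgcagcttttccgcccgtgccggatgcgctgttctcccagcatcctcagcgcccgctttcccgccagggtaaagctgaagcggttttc
Stag3: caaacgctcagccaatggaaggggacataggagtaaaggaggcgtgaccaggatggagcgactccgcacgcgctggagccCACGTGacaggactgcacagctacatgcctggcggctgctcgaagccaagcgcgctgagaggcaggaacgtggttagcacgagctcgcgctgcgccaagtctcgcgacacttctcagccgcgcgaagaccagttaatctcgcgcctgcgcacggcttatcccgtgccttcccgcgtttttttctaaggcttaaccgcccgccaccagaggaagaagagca
Sycp3: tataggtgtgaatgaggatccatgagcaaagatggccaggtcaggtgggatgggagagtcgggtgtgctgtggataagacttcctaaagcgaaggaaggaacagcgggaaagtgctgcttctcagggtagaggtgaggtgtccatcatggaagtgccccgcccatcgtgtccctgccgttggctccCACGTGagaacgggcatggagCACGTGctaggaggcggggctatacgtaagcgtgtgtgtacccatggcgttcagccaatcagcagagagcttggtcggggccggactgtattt

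The other holders were Mael, Ddx4, Sycp1, Ddx25, Tdrd1, Cntd1, Syce2, Mov10l1, Fkbp6, Tex12, Hormad1, Piwil1 and Dnmt3l, the last 2 also the dimmest of the 17 at 9.23 and 8.26. A pair of other motifs was searched on both strands, and their ends can overlap the E-box by at most a pair of letters. The nuclear receptor half-site AAGGTCA, which Nr5a1 can bind, was in 1 of 16 Leydig list promoters, that of Sult1e1 (level 4.88, background), against 4.54% of all. The cyclic AMP response element TGACGTCA, which Crem can bind, was in 1 of 34 late list promoters, that of Izumo1, an egg-binding protein of sperm (level 7.82), against 2.71% of all. Across all genes, CpG-rich promoters made up 16.3% of those not above the guide and 54.7%, 77.5% and 85.3% in the lowest, middle and highest tertile above it. Meiosis genes had them in 81.3%, cell cycle genes in 85.7%, late germ cell genes in 23.5%, and Olfr genes in 0.44% of cases.

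Sertoli cells nurse the germ cells, and both of their lists were bright. All 18 transcription factors and receptors were above the guide, with a median of 12.48. Gata1, an X-linked GATA factor of Sertoli cells, read 14.63, 14.12 and 14.19, and Rhox8, an X-linked homeobox gene of Sertoli cells, read 14.03, 13.84 and 14.33. Wt1 (13.76), Nr5a1 (13.71) and Gata4 (13.56), shared by several gonadal somatic cells, were of like brightness, with SDs from 0.10 to 0.28. Sox9, which directs testis formation, averaged 12.20 ± 0.08, and its relative Sox8 averaged 12.004 ± 0.12 (SD, n = 3 each). The follicle-stimulating hormone receptor Fshr averaged 11.91 ± 0.30. Emx2 was dimmest at 9.14.

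Sertoli cell products and junction genes had 27 of 28 members above the guide and a median of 12.75. Behind Aard came Clu, the secreted chaperone clusterin, at 15.35, 15.52 and 15.47, Vim, the intermediate filament vimentin that other somatic cells share, at 15.36, 15.62 and 15.29, and Cst9, a cystatin, at 14.37, 14.92 and 14.53. Cldn11, the claudin of the blood-testis barrier, averaged 14.56 ± 0.09, and Inha, the alpha subunit of inhibin, 14.30 ± 0.16 (SD, n = 3 each). Amh, the hormone of immature Sertoli cells that removes the Müllerian duct, was among the dimmer members at 11.41, 11.34 and 11.01. Nxnl1, at 6.25, 5.61 and 6.55, was the only member below the guide.

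Leydig cell genes had 21 of 23 members above the guide and a median of 11.87. The steroid enzymes led. Cyp17a1, which turns progestins into androgens, read 15.24, 14.39 and 15.17, and Hsd17b3, which makes testosterone, read 14.61, 14.84 and 14.55. Cyp11a1, the enzyme of the first step from cholesterol, was the steadiest of the list at 12.69, 12.73 and 12.70, while Star, which brings cholesterol into mitochondria, spread over 11.30, 10.61 and 11.82. Insl3, a peptide hormone of Leydig cells, read 12.23, 12.48 and 13.39, and the luteinising hormone receptor Lhcgr 9.59, 8.78 and 10.20. For Star, Insl3 and Lhcgr control 3 was the highest array. Hsd3b6, an isoform of adult Leydig cells, averaged 8.47 and Hsd3b1 13.51, and cross-hybridisation between these similar genes was not tested. Cyp11b1, an adrenal cortex enzyme, was dimmest at 4.85, and Sult1e1 was at 4.88.

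The interstitial mesenchyme and matrix list was the brightest of the cell type lists, with all 23 genes above the guide and a median of 13.84. After Col1a2 and Sparc came Col3a1, at 15.31, 15.22 and 15.30, and the proteoglycan Dcn, at 15.35, 15.17 and 15.19. Pdgfra averaged 14.81 and the transcription factor Tcf21 13.58. Gli1, a target of hedgehog signals, was dimmest at 11.05. Peritubular myoid and smooth muscle genes had 10 of 11 above the guide (median 11.61). Myh11, smooth muscle myosin, read 13.89, 13.47 and 13.68 and Mylk, its kinase, averaged 13.59 ± 0.04 (SD, n = 3), with Cald1 (13.49) and Tpm2 (13.33) next. Tagln split the arrays, with 7.92 and 7.93 on controls 1 and 2 and 6.20, below the guide, on control 3. Cnn1, a calponin of smooth muscle, averaged 5.54.

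Endothelial genes were above the guide in 13 of 14 cases (median 10.17), led by the receptor Kdr at 12.36, 12.12 and 12.15, then Cdh5 (11.72), Eng (11.58) and Pecam1 (11.58), with Plvap below it at 5.36. Macrophage and leukocyte genes had 14 of 18 above it (median 9.04). Lyz2 (11.69) and Mrc1 (11.65) were brightest, the complement genes C1qa, C1qb and C1qc lay between 10.89 and 11.35, and the growth factor receptor Csf1r averaged 10.30. Fcgr1, an Fc receptor, was dimmest at 5.96. Lymphocyte genes had 4 of 9 above the guide (median 6.43), with Cd4 at 9.72 and the B cell antigen Ms4a1 at 4.57. Erythroid genes split by stage: the adult globins Hba-a1 and Hbb-bt averaged 15.13 and 13.75, while the embryonic globins Hba-x and Hbb-y averaged 5.42 and 5.15.

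Genes of neighbouring and foreign tissues were counted the same way. Epididymis and rete testis genes had 9 of 19 above it (median 6.79), led by Epcam (13.24) and Cst8 (12.20), which are also on testis lists, then Pax8 (10.71) and Krt19 (9.14), with the epididymal lipocalin Lcn8 at 4.23. Liver genes had 5 of 13 (median 6.37). Of these Ahsg, a plasma glycoprotein, stood out at 10.99, 11.27 and 10.73, while Alb, serum albumin, averaged 4.96 and Fga 4.33. F2 (7.84), Apoa2 (7.70), Fgg (7.16) and Apoa1 (7.08) were the others above the guide. Pancreas and eye genes had 4 of 14 (median 6.10), the brightest being Ins2 (9.57), Opn1sw (8.19), Ctrb1 (7.91), Pnlip (7.77) and, below the guide, Crygd (6.35), and adipocyte genes 4 of 9 (median 6.14), with the fat cell regulator Pparg at 11.68 and Retn at 4.06. Skeletal and heart muscle genes had 8 of 14 (median 7.70), with Tnnt2 at 13.94, Myh6 at 11.16 and Actn3 at 9.89 but the muscle creatine kinase Ckm at 5.26. Neuron and glia genes had 9 of 15 (median 7.92), with Tubb3 at 12.85 and Slc17a7 at 10.79 but Neurod1 at 4.39.

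Female gonad genes had medians below that of all genes. Granulosa cell genes had 7 of 12 above the guide (median 7.60). Amhr2, the receptor for Amh that Sertoli cells share, averaged 13.26 ± 0.12 (SD, n = 3) and Nr5a2 averaged 10.16. Foxl2, the ovarian transcription factor, read 4.795, 6.01 and 5.93 and the aromatase Cyp19a1 was dimmest at 5.07, both below the guide on every array. Oocyte genes had 10 of 20 above it (median 7.20), led by Nlrp14 (11.13), Figla (9.44), Tcl1 (9.27), H1f8 (8.70) and Nobox (8.52). Zp3 averaged 7.91 and Gdf9 7.54, whereas the egg coat protein Zp2 averaged 5.22 and the growth factor Bmp15 4.98.

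Pluripotency genes had 10 of 14 above the guide (median 8.75). Lin28a (13.26), Klf4 (12.94) and Pou5f1 (11.86) were brightest, and Tfcp2l1 averaged 11.15. Sox2 (6.47), Dppa2 (6.22), Fgf4 (5.16) and Tdgf1 (4.82) were not above it. Pou5f1, a transcription factor of pluripotent cells and early germ cells, differed between arrays, at 11.996, 10.96 and 12.62.

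Retinoic acid drives spermatogonial differentiation, and its pathway had 16 of 21 genes above the guide (median 10.47). Among makers, Aldh1a1 (15.70) and Aldh1a2 (13.28 ± 0.19) were brighter than Aldh1a3 (10.18), and Rdh10, which makes retinaldehyde, averaged 12.23. Cyp26b1, the enzyme that degrades retinoic acid, was among the brightest genes at 15.25, 14.95 and 15.16, and its relative Cyp26a1 averaged 8.18. Of the receptors, Rara averaged 12.06 ± 0.11 and Rarg 10.53 ± 0.43 (SD, n = 3 each), while Rxrg (7.05) lay just under the guide. Crabp2, a retinoic acid binding protein, averaged 5.89 and the reductase Dhrs3, dimmest of the list, 5.80.

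Paired signals of the testis were above the guide in 30 of 31 genes (median 11.59). The ligand Kitl of Sertoli cells averaged 12.81 ± 0.20, and its receptor Kit 14.34 ± 0.21 (SD, n = 3 each). Gdnf, the Sertoli cell factor that maintains spermatogonial stem cells, read 10.43, 10.48 and 10.40. Its receptor subunits Gfra1 and Ret averaged 12.14 and 9.28. Dhh, the hedgehog ligand of Sertoli cells, averaged 11.59 ± 0.16 and its receptor Ptch1 11.47 ± 0.22. Rxfp2, the receptor for Insl3, was the exception at 5.37, 5.05 and 5.38.

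Proliferation genes were bright, with 23 of 25 cell cycle genes above the guide and a median of 12.64. Pcna, the clamp of DNA replication, read 15.06, 14.94 and 14.58, Top2a averaged 14.10, and the replication helicase subunits Mcm4 and Mcm6 averaged 14.04 and 14.03. Cdk1, the mitotic kinase that every dividing cell needs, read 4.98, 4.60 and 6.03, below the guide on all arrays, while its partner Ccnb1 averaged 12.73. A probe that fails to report its gene would read the same way, which could not be checked for Cdk1 or any other dim gene. Cdkn1b, an inhibitor of the cycle, averaged 6.79 and was the other member below it. All 9 Y-linked genes were above it, from Rbmy (14.50), whose copies are alike, and Eif2s3y (13.51) to Sry (8.10). All 17 housekeeping genes were too (median 14.42), from Eef1a1 (15.60) and Gapdh (15.56) to Rplp0, a ribosomal stalk protein, at 10.17, 9.93 and 10.81.

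The median intensities of the 3 control arrays lay between 530.1 and 543.8, and since RMA evens out arrays, this says nothing of the samples. Across genes, which are not independent replicates, the log2 levels of each pair of arrays correlated with Pearson's r of 0.988 to 0.990. Between 14 and 20 transcripts per array exceeded an intensity of 50000. The SD over the 3 arrays had a median of 0.24 on the log2 scale over all genes, 0.21 above the guide and 0.35 not above it. It was largest in the second decile of level (0.38) and was 0.17 in the brightest decile. The highest and lowest array differed by more than 2-fold, a range over 1 on the log2 scale, in 1537 genes (8.90%), 450 of them above the guide (3.70% of those genes), and by more than 4-fold in 70 genes, 24 of them above the guide.

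**Figure D3:**
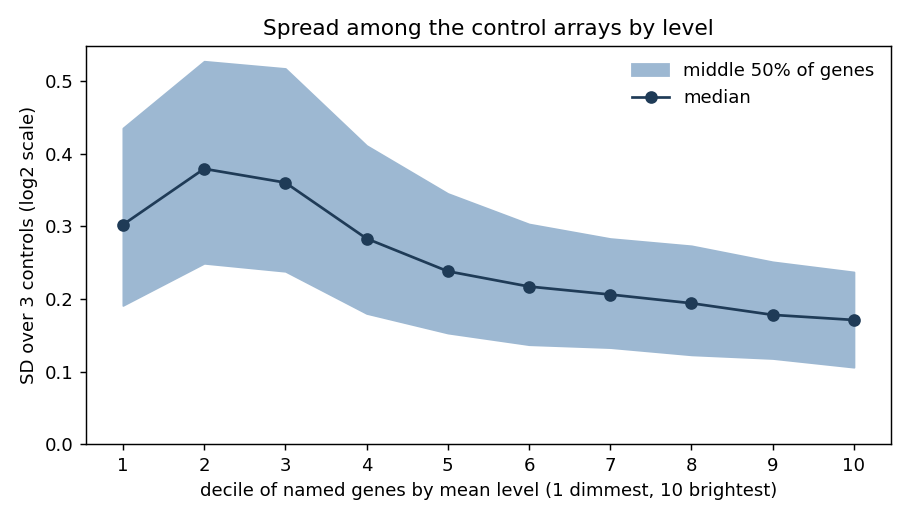
SD over the 3 control arrays on the log2 scale (vertical axis) by decile of named genes ordered by mean level (horizontal axis, 1 dimmest), with the median as points and the middle 50% of genes as the band. The median is highest in the second decile, at 0.38, and lowest in the brightest, at 0.17.

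Spread also differed by list. The median SD of a list's members was 0.15 for piRNA and housekeeping genes, 0.16 for cell cycle genes and 0.17 for Sertoli cell transcription factors and receptors, against 0.29 for meiotic prophase, 0.33 for Leydig cell and 0.34 for late germ cell genes. The median SD of all named genes was 0.24, and the medians of these lists' levels were 12.36 for meiotic prophase, 11.87 for Leydig cell and 6.97 for late germ cell genes. Among all named genes, the deciles that hold these levels had median SDs of 0.18, 0.19 and 0.36. The late germ cell value was therefore no larger than that of genes of like level. Other dim lists had larger SDs, among them liver (0.42), lymphocyte (0.39) and oocyte genes (0.37).

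The meiotic prophase list differed most between arrays by its median deviation. The deviation of a gene from its own 3-array mean had a median over the list of -0.07, 0.27 and -0.26, a gap of 0.53 between controls 2 and 3, against 0.02, -0.02 and 0.00 over all named genes. Control 2 was the highest array for 14 of 19 members and the lowest for 0, and control 3 was the lowest for 12. Over all 17277 named genes control 2 was the highest for 5175 and control 3 the lowest for 6209. Hfm1, a helicase of crossover formation, read 10.27, 10.71 and 8.92. Spo11 read 10.05, 10.79 and 9.50. Hormad1, of the chromosome axis, read 11.70, 12.40 and 11.40, so the same order held for these genes. The brightest member, Tex15, did not follow it, with controls 2 and 3 nearly equal at 14.59 and 14.58. The shifts on controls 2 and 3 were not particular to meiotic prophase genes. Those of differentiating spermatogonia fell on control 3 (median deviation -0.15), which was lowest for 9 of 15. Erythroid genes rose on control 2 (0.16), which was highest for 6 of 11 and lowest for 0. Genes of undifferentiated spermatogonia lay the other way on control 2, with median deviations of 0.02, -0.20 and 0.09 and control 2 lowest for 20 of 28 (6142 of 17277 over all named genes), as in Zbtb16, Gfra1 (12.42, 11.78 and 12.22) and Cdh1 (10.32, 9.30 and 10.48). This dip on control 2 was not particular to spermatogonia. Neuron and glia (-0.22), muscle (-0.25) and adipocyte genes (-0.23) also had negative median deviations there. General germ cell genes showed a gap of 0.04 and piRNA genes one of 0.02. Controls 2 and 3 have array numbers with the same start and control 1 has another, and Olfr genes themselves deviated by -0.08, 0.08 and -0.02. The part of the array background in these shifts was not tested.

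**Figure D4:**
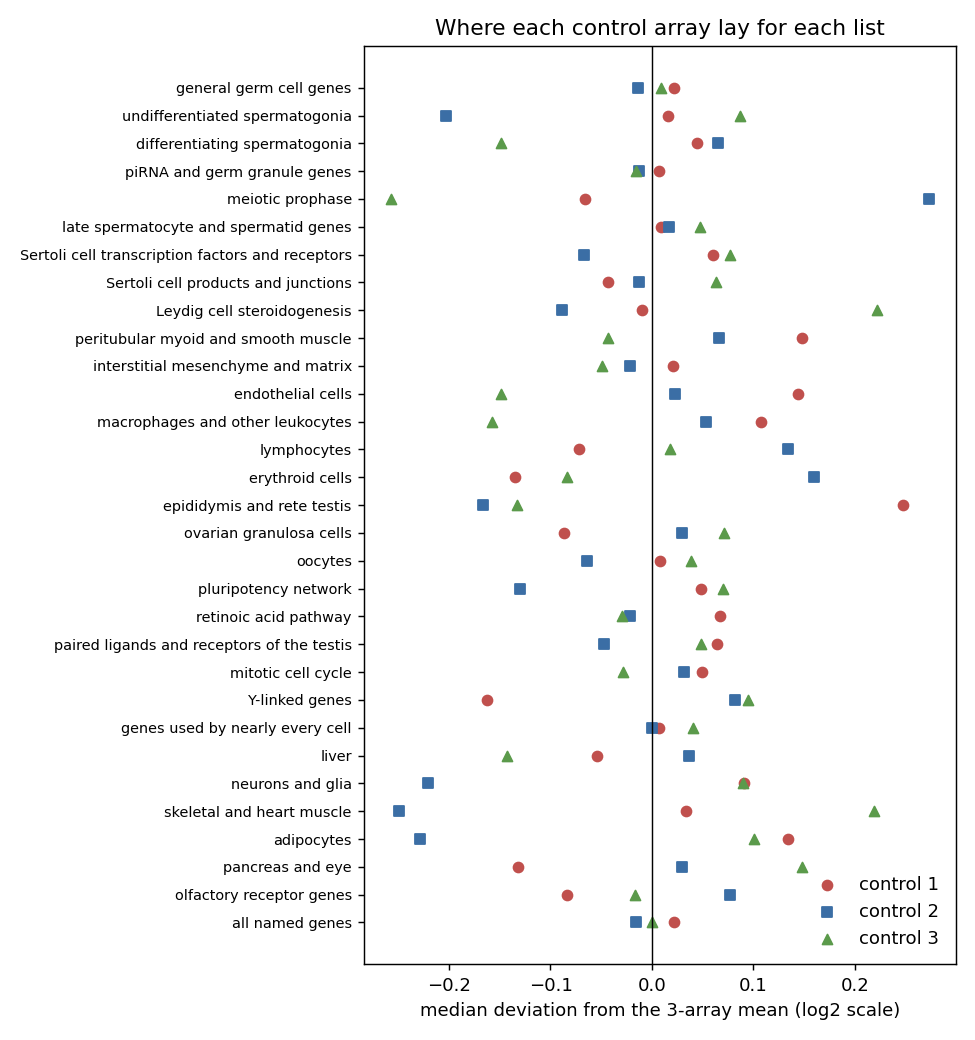
Median deviation of each list's members from their 3-array mean on the log2 scale (horizontal axis) for controls 1, 2 and 3 (circle, square, triangle), with Olfr genes and all named genes at the bottom. Meiotic prophase genes are highest on control 2 (0.27) and lowest on control 3 (-0.26), and epididymis and rete testis genes are highest on control 1 (0.25).

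Leydig cell genes had median deviations of -0.01, -0.09 and 0.22, with control 3 highest for 11 of 23, control 2 for 7 and control 1 for 5. Over all 17277 named genes these counts were 6152, 5175 and 5950. The brightest Leydig list members, Cyp17a1 and Hsd17b3, were highest on controls 1 and 2. On control 3 macrophage and endothelial genes had median deviations of -0.16 and -0.15. It was the lowest array for 9 of 18 and 8 of 14 of them, against 6209 of 17277 over all named genes. Sertoli cell transcription factors and receptors kept within -0.07 to 0.08. Muscle genes had medians of 0.03, -0.25 and 0.22 with control 3 highest for 10 of 14 (6152 of 17277 over all named genes), and Acta1, skeletal muscle actin, read 7.86, 6.04 and 5.55.

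Epididymis and rete testis genes were highest on control 1, with median deviations of 0.25, -0.17 and -0.13, and control 1 was highest for 10 of 19 (5950 of 17277 over all named genes). Of these 19, 10 lay below the guide on average. Crisp1, a secreted protein of the epididymis, read 9.70, 4.11 and 6.50, so it was above the guide on control 1 and below it on the others. Spink8, an epididymal protease inhibitor, ran in the same order with 10.89, 5.28 and 7.85 and had the largest range of all genes above the guide, 5.61. Gpx5, a glutathione peroxidase of the epididymis, read 7.59, 7.04 and 6.99, above the guide on control 1 and just under it on the others. The lipocalins and Adam7 were below the guide on every array: Lcn5 read 4.59, 5.004 and 4.15, Lcn8 3.60, 4.57 and 4.51, Lcn9 6.06, 5.03 and 5.52, and Adam7 5.33, 4.91 and 5.60. Pax2, a duct transcription factor, read 8.41, 7.30 and 7.40. The part of attached epididymis in these levels was not tested.

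The other genes with the largest ranges above the guide differed on 1 array or another. Highest on control 1 were Wfdc15b (9.70, 5.47 and 6.26), Tmem18 (10.41, 6.36 and 7.34), the kallikrein Klk1b22 (9.89, 8.26 and 6.20) and Pcp4 (10.65, 7.66 and 8.46). Control 3 stood above the other arrays in Plbd1 (9.29, 9.17 and 12.55), the peroxiredoxin Prdx2 (8.32, 8.62 and 11.26) and Fam32a (9.08, 8.63 and 11.30), and below them in AA467197 (8.88, 8.89 and 5.97) and Erh (7.32, 8.28 and 5.65). Control 2 stood above in Paip1, a partner of the poly(A)-binding protein (9.996, 12.93 and 9.87), and below in Rpl29, a ribosomal protein (10.003, 6.41 and 10.88). No single array therefore held all of them.

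**Figure D5:**
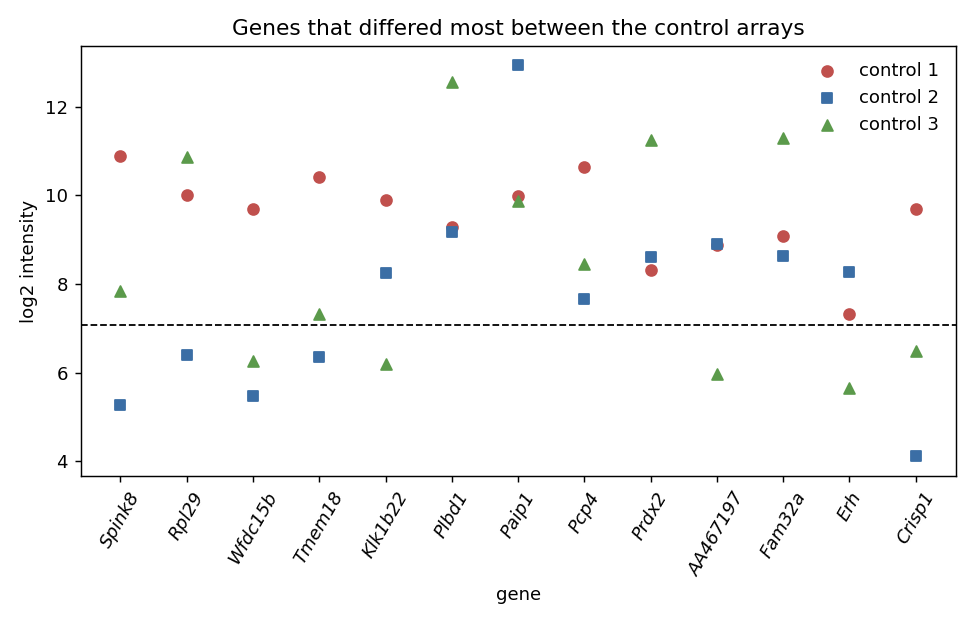
Log2 intensity (vertical axis) on controls 1, 2 and 3 (circle, square, triangle) of the 12 genes with the largest range among genes above the guide, ordered by range, and of Crisp1. Spink8, Wfdc15b, Tmem18, Pcp4 and Crisp1 are highest on control 1 and lowest on control 2, and Plbd1, Prdx2 and Fam32a are highest on control 3.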

How the data were processed

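TRIzol and a column cleanup gave RNA of P9 testes, and NimbleGen mouse arrays of long oligonucleotides took the Cy3-labelled product, per the labels. The authors deposited linear intensity values, 1 per accession on each array. RMA is the tool named per the submitters' processing notes. Not given in the sources used here are its version, background correction, the probe annotation, the build of the array design, whether all 6 arrays were summarised together and how the linear scale was reached, since RMA normally returns log2 values.

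Log2 of each deposited intensity was averaged over the 3 controls. Accessions without version were matched to RefSeq symbols of assembly GRCm38.p6, and the row with the highest control mean stood for a gene. A symbol was found for 17761 of 18879 NM accessions and for 19 of 6752 XM accessions. No further normalization, test or p-value was used, since 1 group was described. Errors are SDs over 3 arrays, a number that limits their precision. Replicates were numbered as deposited.

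The samples, lists, motifs and rules were chosen with earlier results of these data known. Named genes were, per list, the 4 brightest (5 for late germ cell, oocyte, liver, neuron, muscle and pancreas and eye genes), the dimmest and those astride the guide with a range of at least 2, then the 15 brightest genes with and without ribosomal and housekeeping genes, the 12 with the largest range above the guide, the 5 brightest Olfr genes and Dmrt1, and other list members as examples. Some members are not reported here by name. The printing of E-box promoters went beyond the rule, as did the pooling of lists for the E-box share. Alternatives were other guides, row choices, scalings, log2(value + 50) and each array left out. Computations were checked on simulated arrays and run in Python 3.11.15 with pandas 2.3.3, numpy 2.4.6 and matplotlib 3.10.9.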

Additional observations from a re-analysis of the deposited data

How the results depend on the processing

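The number of genes above the guide was 12170 and ran from 10581 (99th percentile of Olfr genes) to 13254 (90th percentile) over the other guides, row choices and scalings, and from 12036 to 12336 with 1 control left out. With unnamed transcripts included it was 17077. Of 290 list counts under alternatives 283 stayed within 1.5 times the reported count. With the 99th percentile as the guide, late germ cell genes above it numbered 11, oocyte genes 5, muscle genes 5, liver genes 1 and pancreas and eye genes 1. Liver genes numbered 8 with the 90th percentile and 3 where all 3 controls had to pass. The counts of dim lists therefore depend on where the guide is set. Genes with a range over 1 numbered 342 with log2(value + 50), 450 among genes above the guide, and 575 (without control 3) to 775 (without control 1) with an array left out, where fewer arrays give smaller ranges by construction. The median SD ran from 0.18 to 0.24. With log2(value + 50) the gap between controls in the epididymis and rete testis list was 0.27 in place of 0.42. The largest shift of a list median was 0.57, for neuron and glia genes with the mean of a gene's rows. No paired analysis was possible because only 1 group was described. Closeness to the background limits the counts of dim lists.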

Other observations

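The X-linked Rhox homeobox cluster, whose genes are active in reproductive tissues, was split. Of its 15 measured genes 8 were above the guide, with a median of 7.96. Rhox8 was brightest at 14.07 and Rhox2a read 11.71, 12.29 and 11.45. Rhox4a, Rhox4c, Rhox4d and Rhox4f lay between 10.10 and 10.65, and since these copies are near-identical their levels cannot be told apart. Rhox10, of spermatogonia, averaged 9.03. Rhox3a (5.21), Rhox11 (5.39), Rhox6 (5.92) and Rhox9 (4.79) were below the guide.

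Genes picked by a ribosomal protein symbol, which does not show that each encodes one, had a median of 14.47, with 78 of 81 above the guide. Rps19, a subunit every ribosome needs, was not above it, at 6.77, 6.19 and 6.97, where a failed probe could not be checked, and neither were Rpl39l (7.05) and Rps23rg1 (6.96). Of the 7851 transcripts with no symbol 4527 were above the guide, and the brightest of them averaged 15.68.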
